A study of Rattus norvegicus with 9 samples.

Results

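Ad-Yap WT, an adenovirus used to overexpress Yap, was compared with Ad-Yap shRNA, an adenovirus used to knock Yap down, in primary neonatal rat cardiomyocytes. The comparison takes 6 of the 9 small RNA libraries of the series, 3 from each virus, and describes every annotated rat miRNA in the deposited count table. The remaining 3 libraries come from cells given the control virus Ad-GFP, which encodes green fluorescent protein, and are shown for orientation. All cells were isolated from the hearts of Sprague Dawley rats aged 1 to 2 days, were kept in normal glucose and were sampled 48 h after virus. The control virus carries no shRNA, so effects of expressing an shRNA and of losing Yap cannot be told apart here. A miRNA table holds no Yap mRNA, so neither the overexpression nor the knock-down could be checked. Whether each replicate is its own cell isolation is not stated in the labels. The p-values therefore cover the variation among these libraries alone, and that variation may be technical.

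Yap is a transcriptional co-activator that the kinases of the Hippo pathway keep out of the nucleus, and in the heart it is known for driving cardiomyocyte proliferation around birth. It has also been reported to hold back the nuclear step of miRNA processing by binding Ddx17, a helicase that assists Drosha. A mature miRNA guides a silencing complex to mRNAs that pair with its seed, the bases near its 5′ end, so that miRNAs with the same seed can share targets. Each hairpin yields a 5p and a 3p arm, which are counted separately.

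The sequences that the results turn on are given first, as RefSeq lists them for rat (assembly GRCr8), 5′ to 3′, with the seed (bases 2 to 8) in capitals. Of the 653 annotated entries, 586 matched a RefSeq mature sequence by name. The first group holds miRNAs that were higher in Ad-Yap WT than in Ad-Yap shRNA. It includes a pair that differs by 1 base (miR-204-5p and miR-211-5p) and families with a common seed (miR-34b-5p, miR-34c-5p and miR-449a-5p, and miR-221-3p and miR-222-3p).
miR-204-5p: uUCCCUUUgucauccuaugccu
miR-211-5p: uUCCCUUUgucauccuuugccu
miR-674-5p: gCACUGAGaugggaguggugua
miR-31a-5p: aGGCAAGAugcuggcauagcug
miR-199a-5p: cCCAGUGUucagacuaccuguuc
miR-199a-3p: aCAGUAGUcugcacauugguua
miR-34b-5p: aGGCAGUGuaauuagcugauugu
miR-34c-5p: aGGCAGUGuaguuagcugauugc
miR-449a-5p: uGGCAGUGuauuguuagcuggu
miR-221-3p: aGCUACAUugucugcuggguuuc
miR-222-3p: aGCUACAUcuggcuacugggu
miR-322-5p: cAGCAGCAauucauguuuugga
miR-503-5p: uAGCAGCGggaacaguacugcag
miR-29b-3p: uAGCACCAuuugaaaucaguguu

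The second group was lower in Ad-Yap WT than in Ad-Yap shRNA. It holds miRNAs of striated muscle, among which miR-1-3p and miR-1b share a seed, and 3 members each of the miR-30 and miR-181 families, each family with its own seed.
miR-499-5p: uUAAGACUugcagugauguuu
miR-1-3p: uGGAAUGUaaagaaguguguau
miR-1b: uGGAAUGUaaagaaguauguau
miR-133a-3p: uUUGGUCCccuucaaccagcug
miR-30a-5p: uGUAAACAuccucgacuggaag
miR-30c-5p: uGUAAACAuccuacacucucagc
miR-30e-5p: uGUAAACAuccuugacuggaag
miR-181a-5p: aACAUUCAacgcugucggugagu
miR-181c-5p: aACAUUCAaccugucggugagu
miR-181d-5p: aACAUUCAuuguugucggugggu

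Seed sharing did not set the direction in 2 cases, and the sequences of those cases follow. miR-384-5p carries the miR-30 seed and miR-28-5p carries the seed of miR-708-5p, and in both cases the members passed the test in opposite directions.
miR-384-5p: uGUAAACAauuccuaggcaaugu
miR-28-5p: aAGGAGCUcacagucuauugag
miR-708-5p: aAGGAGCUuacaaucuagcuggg

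Libraries differed in how much miRNA they held. Summed miRNA reads were 2.95, 1.93 and 2.15 M (M = 1e+06 reads) in the Ad-Yap WT libraries, against 2.09, 1.62 and 1.48 M in those of Ad-Yap shRNA, with 3.50 to 3.60 M for Ad-GFP. As a share of the library total implied by the deposited RPM values (reads per 1e+06 reads), miRNA reads took 12.5 ± 4.62% in Ad-Yap WT, 8.26 ± 1.42% in Ad-Yap shRNA and 25.4 ± 0.77% in Ad-GFP (SD, n = 3 each). The share did not differ between the Yap groups beyond the spread of the libraries (exact two-sided permutation test, p = 0.2, where 3 against 3 cannot go below 0.1). Composition did separate the Yap groups. The 10 most read entries took 29.8, 34.7 and 34.8% of miRNA reads in Ad-Yap WT, against 35.4, 37.8 and 38.3% in Ad-Yap shRNA. The TMM scaling factors did not overlap either (same permutation test, p = 0.1 for each measure). Levels below are CPM, reads per 1e+06 miRNA reads after TMM scaling, and therefore describe each miRNA relative to the others. On the deposited totals every log2 fold change moved up together, the median over tested miRNAs by 0.89, so falls described below are falls relative to the typical miRNA. All pairs of libraries of a group differed by far more than counting noise, and none were copies. The cardiomyocyte label was checked on the striated muscle miRNAs miR-1-3p, miR-133a-3p, miR-499-5p and miR-208a-5p, which were read in every library. Their list had a summed level of 49716 to 58441 CPM in Ad-Yap WT, 92131 to 110542 CPM in Ad-Yap shRNA and 50984 to 54667 CPM in Ad-GFP.

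Of 1422 entries in the table, 579 had enough reads to be tested, 428 of them annotated and 151 predicted. Between Ad-Yap WT and Ad-Yap shRNA, 165 of the 579, or 28.5%, passed the test (edgeR quasi-likelihood, Benjamini-Hochberg adjusted p under 0.05). Among the 428 annotated miRNAs, 122 passed, which is the same share of 28.5%. Of these, 58 were higher in Ad-Yap WT and 64 were lower, beside 14.2% higher and 14.3% lower among all tested entries. Differences of at least 2-fold were found for 31 annotated miRNAs on the higher side and 20 on the lower side, beside 7.77% and 6.04% of all tested entries. Libraries of the 2 groups did not overlap in CPM for 193 annotated miRNAs, beside 43.4% of all tested entries. Annotated miRNAs that both passed and did not overlap numbered 119, or 27.8% of the 428 tested, beside 28% of all tested entries. Another 225 annotated entries had too few reads to be tested, and 25 of those had 0 reads in all 6 libraries.

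**Figure D1:**
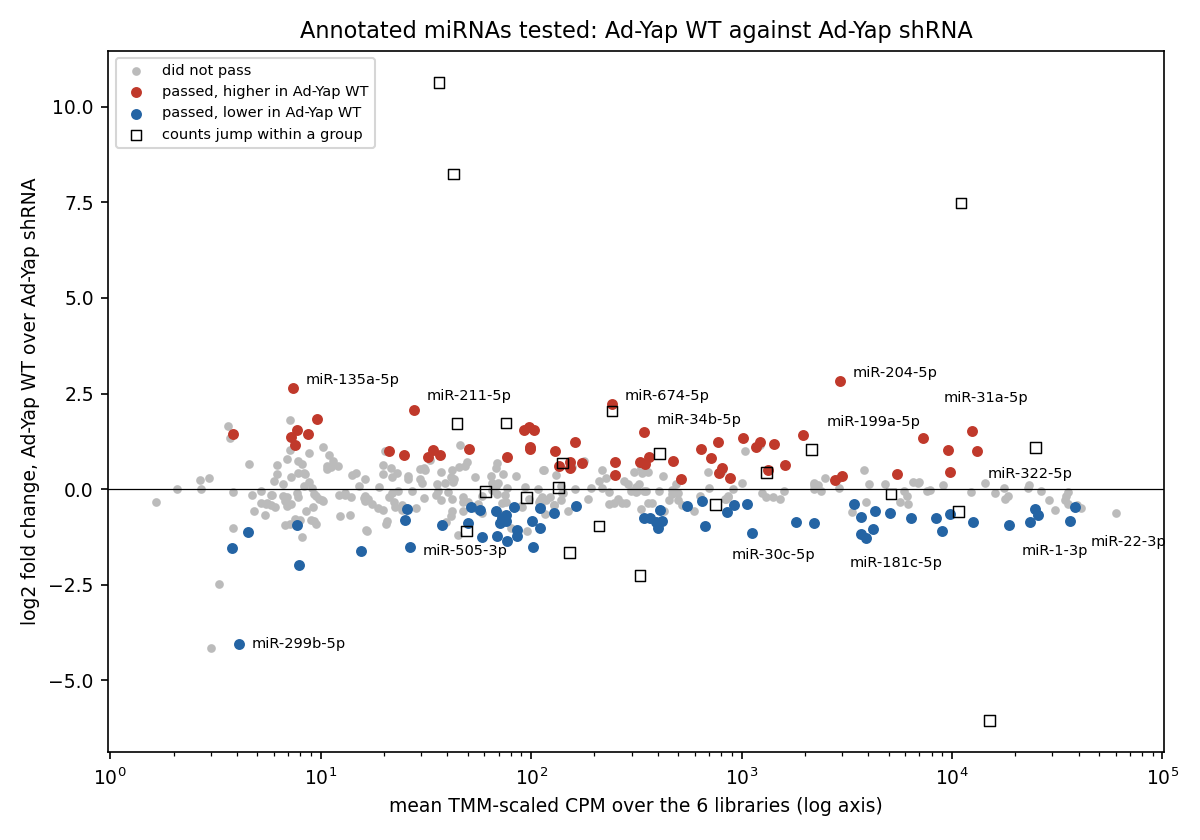
Log2 fold change of Ad-Yap WT over Ad-Yap shRNA (vertical) against mean TMM-scaled CPM over the 6 libraries (horizontal, log axis), 1 point per tested annotated miRNA. Red points passed the test and were higher in Ad-Yap WT, blue points passed and were lower, grey points did not pass, and open squares mark entries whose counts jump within a group. miR-204-5p stands highest among the stable entries above 100 CPM, at 2.82, and the blue points at the right include miR-1-3p at -0.85; on the deposited totals miR-1-3p turns to 0.046.

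Where the Ad-GFP libraries lay is given as a description only. Their mean miRNA depth was 3.54 M, against 2.34 M for Ad-Yap WT and 1.73 M for Ad-Yap shRNA. Their mean TMM factor was 1.24, against 1.00 and 0.82. On both measures, and on the miRNA share given above, Ad-Yap WT was the nearer group. The part of depth and composition in the position of Ad-GFP, here and below, was not tested. The same counts over all tested entries are not given. Among the 58 higher miRNAs, the Ad-GFP mean was closer to Ad-Yap WT for 40 and closer to Ad-Yap shRNA for 18, on a log2 scale with 0.5 CPM added. Among the 64 lower miRNAs, it was closer to Ad-Yap WT for 44 and closer to Ad-Yap shRNA for 20. The Ad-GFP mean lay between the 2 Yap groups for 24 of the higher and 35 of the lower miRNAs, and outside both for the others.

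miR-204-5p, made from an intron of Trpm3, had the largest rise among miRNAs with at least 100 CPM and stable counts. It had 6137, 4439 and 4923 CPM in Ad-Yap WT, against 735, 736 and 718 CPM in Ad-Yap shRNA, with 5336 to 5461 CPM in Ad-GFP. The Ad-Yap shRNA libraries stood far below all others, and the Ad-Yap WT libraries spread around the Ad-GFP values. Its log2 fold change was 2.82 (SE 0.12, edgeR adjusted p = 1.17e-05). miR-211-5p, made from an intron of the related gene Trpm1, had 66.1, 30.5 and 38.6 CPM in Ad-Yap WT, against 14.04, 9.28 and 8.79 CPM in Ad-Yap shRNA and 48.2 to 48.3 CPM in Ad-GFP. Its log2 fold change was 2.06 (SE 0.32, edgeR adjusted p = 0.00304). The printed sequences of this pair differ at 1 base, so reads of the far more abundant miR-204-5p could have been counted as miR-211-5p, and its value is uncertain.

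miR-674-5p had 435, 357 and 400 CPM in Ad-Yap WT, against 88.5, 59.6 and 108 CPM in Ad-Yap shRNA, with 376.9 to 406 CPM in Ad-GFP. The Ad-Yap WT and Ad-GFP libraries overlapped, and the Ad-Yap shRNA libraries lay apart. Its log2 fold change was 2.22 (SE 0.21, edgeR adjusted p = 3.44e-04). The other arm of the hairpin went the other way: miR-674-3p had 21.1, 13.8 and 19.3 CPM in Ad-Yap WT, against 29.2, 32.5 and 34.3 CPM in Ad-Yap shRNA (log2 fold change -0.81, edgeR adjusted p = 0.0188; 0.17 on the deposited totals). miR-1843a was the only other hairpin whose arms passed in opposite directions; it was chosen after its values were seen, and both arms lost the call in 7 of 9 refits without 1 library (edgeR adjusted p up to 0.145 for the 3p arm).

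miR-31a, studied mostly in tumours and muscle, rose in both arms. miR-31a-5p had 16078, 21735 and 17805 CPM in Ad-Yap WT, against 6834, 6507 and 5971 CPM in Ad-Yap shRNA, with 10912 to 11945 CPM in Ad-GFP. Here the 3 groups did not overlap, and Ad-GFP lay between the 2 Yap groups. That made a log2 fold change of 1.53 (SE 0.12, edgeR adjusted p = 2.54e-04). miR-31a-3p had a log2 fold change of 1.42 (SE 0.13, edgeR adjusted p = 3.44e-04), and its Ad-GFP libraries lay at 2086 to 2460 CPM, below the 2792 to 2974 CPM of Ad-Yap WT and above the 892 to 1254 CPM of Ad-Yap shRNA.

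miR-199a is transcribed with miR-214 from the antisense strand of a dynamin gene and is abundant in fibroblasts and other mesenchymal cells. miR-199a-5p had 10236, 10332 and 10554 CPM in Ad-Yap WT, against 4109, 4259 and 4006 CPM in Ad-Yap shRNA, with 10918 to 12680 CPM in Ad-GFP. The libraries of each group lay close together, with Ad-Yap WT slightly under Ad-GFP and Ad-Yap shRNA far under both. The log2 fold change was 1.33 (SE 0.079, edgeR adjusted p = 2.94e-05), and that of miR-199a-3p was 1.23 (SE 0.11, edgeR adjusted p = 3.06e-04). miR-214-3p had 1332, 1281 and 1522 CPM in Ad-Yap WT, against 584, 1041 and 452 CPM in Ad-Yap shRNA, and did not pass (log2 fold change 0.99, edgeR adjusted p = 0.079).

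Of the 5 tested entries of the fibroblast and mesenchymal list, 2 were higher, beside 14.2% of all tested entries, and 0 lower. Both were arms of miR-199a, and the median log2 fold change of the list was 1.23. The median over all tested entries was -0.04. miR-21-5p, the most read member of that list, had 26243, 40051 and 37164 CPM in Ad-Yap WT, against 32075, 37105 and 40566 CPM in Ad-Yap shRNA (log2 fold change -0.09, edgeR adjusted p = 0.732). The summed level of the list was 39884 to 54116 CPM in Ad-Yap WT, 37662 to 45822 CPM in Ad-Yap shRNA and 34974 to 38334 CPM in Ad-GFP. Fewer fibroblasts and less of these miRNAs per cell cannot be told apart in bulk libraries.

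The miR-34 and miR-449 family, which shares a seed and includes known p53 targets, had 7 tested arms. Of these, 5 were higher in Ad-Yap WT, beside 14.2% of all tested entries, 0 were lower, and the median log2 fold change was 1.11. miR-449a-5p had 1637, 1621 and 1558 CPM in Ad-Yap WT, against 739, 746 and 747 CPM in Ad-Yap shRNA, with 716 to 794 CPM in Ad-GFP. In contrast to miR-204-5p, it was the Ad-Yap WT libraries that stood apart, and the other 2 groups overlapped. It had a log2 fold change of 1.11 (SE 0.066, edgeR adjusted p = 2.94e-05).

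miR-34b-5p showed the same order, with 501, 486.7 and 527 CPM in Ad-Yap WT, against 161, 214.3 and 165 CPM in Ad-Yap shRNA and 187 to 201 CPM in Ad-GFP (log2 fold change 1.49, SE 0.13, edgeR adjusted p = 2.56e-04). miR-34b-3p, miR-34c-5p and miR-34c-3p, from the same transcript, had log2 fold changes of 1.23, 1.33 and 0.82. Replicate 3 of Ad-Yap shRNA was low for miR-34c-5p, at 294 CPM beside 697 and 730 CPM in the other libraries of that group. miR-34a-5p, which comes from a separate gene and carries the same seed, did not follow. It had 19198, 26065 and 24515 CPM in Ad-Yap WT, against 20713, 23022 and 24974 CPM in Ad-Yap shRNA and 8518 to 14354 CPM in Ad-GFP (log2 fold change 0.02, edgeR adjusted p = 0.944).

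miR-221 and miR-222 are made from 1 transcript, share a seed and are known to repress the cell cycle inhibitor Cdkn1b. miR-222-3p had 11536, 13540 and 13549 CPM in Ad-Yap WT, against 6035, 6458 and 6389 CPM in Ad-Yap shRNA, with 5784 to 6214 CPM in Ad-GFP. The Ad-Yap WT libraries were about level with each other and above all others, and Ad-GFP and Ad-Yap shRNA overlapped. The log2 fold change was 1.03 (SE 0.088, edgeR adjusted p = 2.56e-04). miR-221-3p had 1883, 2030 and 1926 CPM in Ad-Yap WT, against 1237, 1236 and 1300 CPM in Ad-Yap shRNA (log2 fold change 0.63, edgeR adjusted p = 0.0104). It did not pass without any one of the Ad-Yap shRNA libraries (edgeR adjusted p up to 0.0683).

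The cluster of miR-322, miR-503 and miR-351, whose leading members are known to repress cell cycle genes, was higher in Ad-Yap WT. Of its 9 tested arms, 7 were higher, beside 14.2% of all tested entries, 0 were lower, and all 9 had a positive log2 fold change, with a median of 0.85. miR-322-5p, the rodent counterpart of human miR-424, had 15344, 19234 and 17772 CPM in Ad-Yap WT, against 8313, 9217 and 8821 CPM in Ad-Yap shRNA, with 13456 to 15128 CPM in Ad-GFP. Ad-GFP overlapped the lower end of Ad-Yap WT and lay above Ad-Yap shRNA. Its log2 fold change was 0.99 (SE 0.10, edgeR adjusted p = 5.00e-04).

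miR-503-5p had 798, 852 and 943 CPM in Ad-Yap WT, against 394, 477 and 388 CPM in Ad-Yap shRNA and 276 to 436 CPM in Ad-GFP (log2 fold change 1.04, edgeR adjusted p = 0.00398). Here Ad-GFP overlapped Ad-Yap shRNA, so members of 1 cluster differed in where Ad-GFP lay. miR-351-5p had 188, 124.98 and 131.9 CPM in Ad-Yap WT, against 42.1, 41.0 and 60.6 CPM in Ad-Yap shRNA (log2 fold change 1.63, edgeR adjusted p = 0.00165). The call on miR-542-3p (0.85) was lost without replicate 1 or 3 of either Yap group (edgeR adjusted p up to 0.0742). That on miR-351-3p (1.04), whose libraries overlapped, was lost in 8 of 9 refits without 1 library (up to 0.163). The count of higher members ranged from 5 to 8 when libraries were left out.

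miR-29b-3p, a repressor of collagen genes that has also been linked to Yap in other cells, had 2020, 1597 and 2316 CPM in Ad-Yap WT, against 720, 836 and 1053 CPM in Ad-Yap shRNA and 873 to 1200 CPM in Ad-GFP. Its log2 fold change was 1.19 (SE 0.20, edgeR adjusted p = 0.00398). Its seed partners miR-29a-3p and miR-29c-3p did not pass, with log2 fold changes of 0.51 and 0.13. In the list of miRNAs linked to Hippo and Yap, 1 of 10 tested members was higher, 1 was lower and the median log2 fold change was 0.17. The lower one was miR-29c-5p, at 73.0, 75.5 and 60.9 CPM in Ad-Yap WT, against 98.3, 99.03 and 91.4 CPM in Ad-Yap shRNA. Its call was lost in 6 of 9 refits without 1 library (edgeR adjusted p up to 0.100). This share is below the 28.5% of all tested entries.

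Several less read arms rose while their more read partners did not pass. In the family of miR-99, miR-100 and miR-125, 5 of 11 tested arms were higher, beside 14.2% of all tested entries, 0 were lower, and the median log2 fold change was 0.44. For miR-100 both arms were among the 5. The more read miR-100-5p averaged 9819 CPM and had 0.44 (edgeR adjusted p = 0.00366), and miR-100-3p averaged 3.83 CPM and had 1.45. Unstable counts, described below, held for 2 of the 11 arms. Without any 1 library 3 or 4 were higher, with 3 without replicate 1 or 3 of Ad-GFP or any one library of Ad-Yap shRNA, and the median ranged from 0.10 to 0.63. miR-99a-3p had 143.7, 124.4 and 133.3 CPM in Ad-Yap WT, against 64.2, 60.3 and 68.5 CPM in Ad-Yap shRNA (log2 fold change 1.06, edgeR adjusted p = 5.76e-04), while miR-99a-5p, at 24944 to 42685 CPM over the 6 libraries, had -0.28 (edgeR adjusted p = 0.189). miR-99b-3p and miR-99b-5p showed the same split, at 0.73 and -0.19. miR-23b-5p had 159, 124.98 and 176 CPM in Ad-Yap WT, against 49.1, 50.3 and 57.1 CPM in Ad-Yap shRNA (log2 fold change 1.56, edgeR adjusted p = 3.44e-04), and its partner miR-23b-3p had -0.09 (edgeR adjusted p = 0.450).

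Over the 118 hairpins with both arms tested, both arms passed in the same direction for 14 and in opposite directions for 2. For 49 hairpins 1 arm passed, and the other arm had the same sign in 31 of them. Beside these counts, 28.5% of all tested entries passed, and the 2 arms had the same sign in 71 of the 118 hairpins. Whether arms of a hairpin agreed more than unrelated entries was not tested. Across hairpins, the log2 fold changes of the 2 arms had a Pearson r of 0.14 and a Spearman rho of 0.27, where points share the same 6 libraries.

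**Figure D2:**
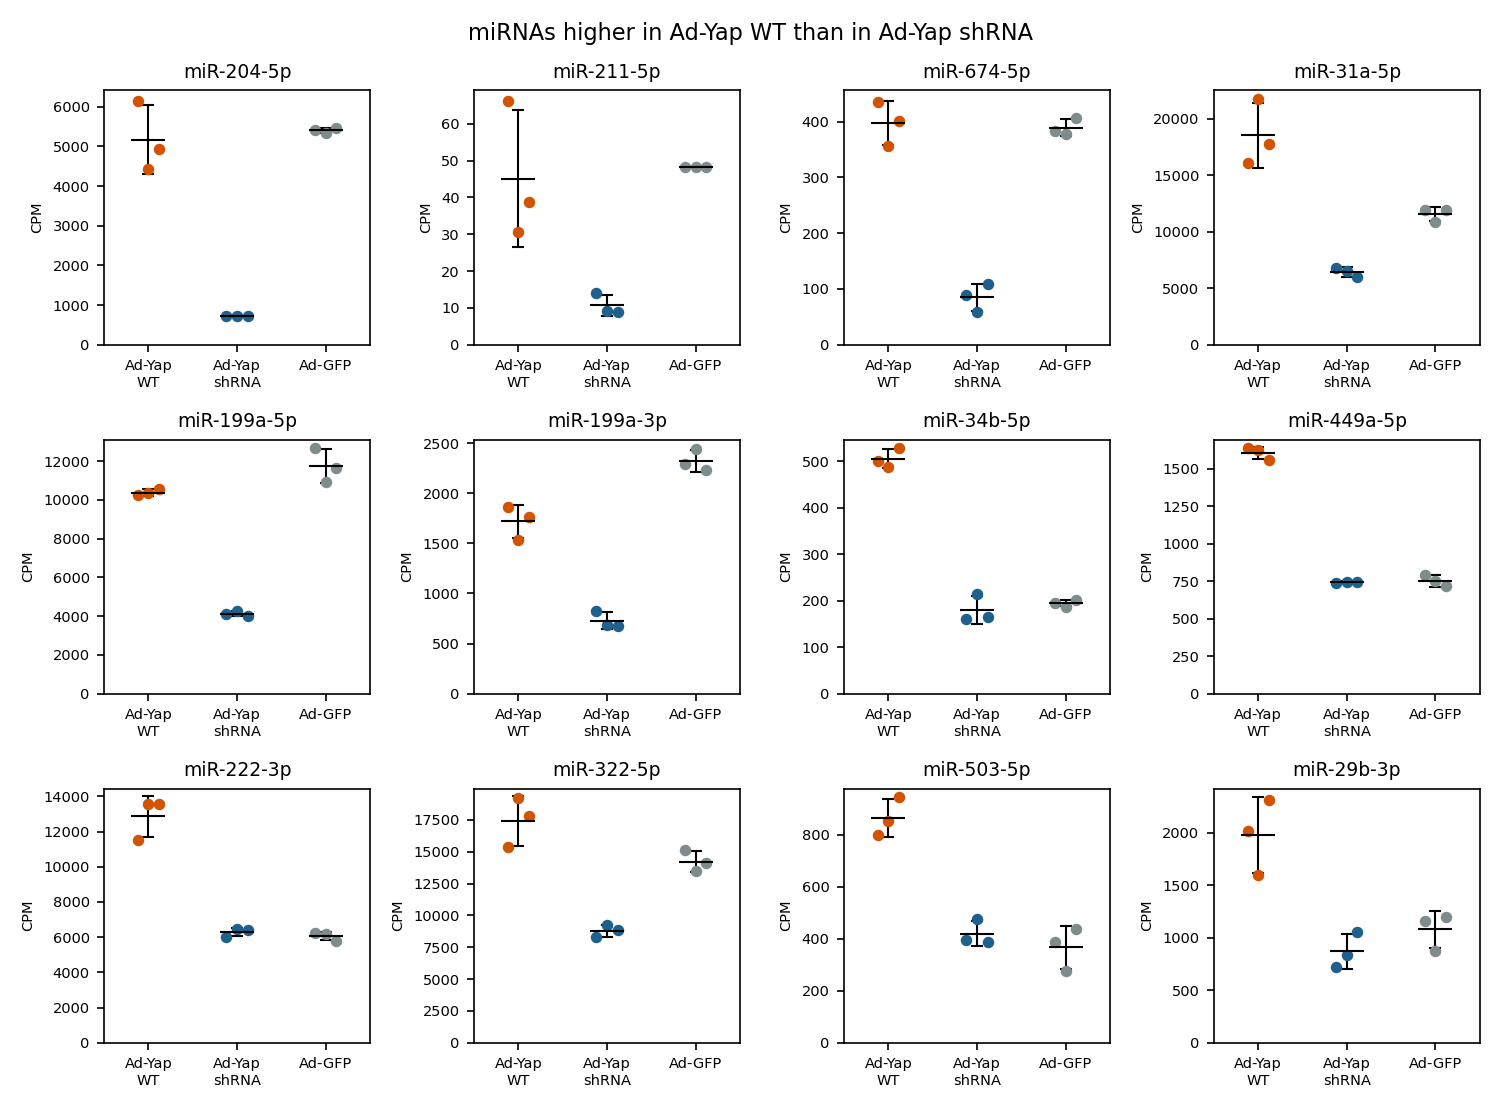
TMM-scaled CPM (vertical, linear from 0) of 12 miRNAs that were higher in Ad-Yap WT, with 1 point per library for Ad-Yap WT, Ad-Yap shRNA and Ad-GFP, and bars for mean ± SD (n = 3). For miR-204-5p, miR-674-5p and miR-199a-5p the Ad-Yap shRNA libraries stand apart from the other groups, and for miR-449a-5p, miR-34b-5p and miR-222-3p the Ad-Yap WT libraries do.

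The miRNAs of striated muscle were lower in Ad-Yap WT than in Ad-Yap shRNA for 7 of 12 tested arms, beside 14.3% of all tested entries, and higher for 0, with a median log2 fold change of -0.64 (-0.51 at matched depth, described below, and 0.29 on the deposited totals, where 0 arms passed). miR-499-5p, made from an intron of the myosin gene Myh7b, had 21498, 29100 and 27971 CPM in Ad-Yap WT, against 41768, 47443 and 51562 CPM in Ad-Yap shRNA, with 19298 to 20306 CPM in Ad-GFP. Ad-Yap shRNA stood above both other groups, and Ad-Yap WT stood above Ad-GFP. The log2 fold change was -0.84 (SE 0.13, edgeR adjusted p = 0.00306), and 0.013 on the deposited totals.

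miR-1-3p and miR-133a-3p are made from shared transcripts under the control of muscle transcription factors. miR-1-3p had 15963, 16307 and 17913 CPM in Ad-Yap WT, against 29908, 25988 and 34858 CPM in Ad-Yap shRNA, with 15967 to 18298 CPM in Ad-GFP. The Ad-Yap WT and Ad-GFP libraries overlapped and lay below all of Ad-Yap shRNA. The log2 fold change was -0.85 (SE 0.12, edgeR adjusted p = 0.00206), and 0.046 on the deposited totals. miR-1b, which differs from miR-1-3p by 1 base and may share its reads, had -0.93 (edgeR adjusted p = 0.00165). miR-133a-3p had 8702, 9473 and 8410 CPM in Ad-Yap WT, against 15524, 15622 and 17481 CPM in Ad-Yap shRNA, with 10626 to 11318 CPM in Ad-GFP (log2 fold change -0.87, SE 0.084, edgeR adjusted p = 3.44e-04; 0.032 on the deposited totals).

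Among the other muscle members, miR-208a-5p, from an intron of Myh6, had 2777, 2729 and 2887 CPM in Ad-Yap WT, against 3853, 4541 and 5430 CPM in Ad-Yap shRNA (log2 fold change -0.72, edgeR adjusted p = 0.00393; 0.22 on the deposited totals). miR-133a-5p had a log2 fold change of -1.51 (edgeR adjusted p = 0.0255), and its call was lost without replicate 1 or 2 of Ad-Yap WT or replicate 2 or 3 of Ad-Yap shRNA (adjusted p up to 0.0832). miR-208b-5p (-0.90) lost its call in 5 of 9 such refits (up to 0.0844), and miR-486 (-0.56) in 0. miR-206-3p, the member typical of skeletal muscle, had 67.6, 61.6 and 76.8 CPM in Ad-Yap WT, against 56.1, 75.0 and 54.5 CPM in Ad-Yap shRNA, and did not pass (log2 fold change 0.15, edgeR adjusted p = 0.539). miR-133b-3p, which differs from miR-133a-3p at its last base and may share its reads, did not pass (-0.36, edgeR adjusted p = 0.161). Nor did miR-208a-3p (0.17) and miR-499-3p (1.00), whose values were positive. With each library left out in turn, 5 to 7 members of the list passed on the lower side and 0 on the higher side.

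The miR-30 family, abundant in cardiomyocytes and reported to repress connective tissue growth factor, divided by arm. All 5 tested 5p arms were lower in Ad-Yap WT, beside 14.3% of all tested entries. None of the 6 tested 3p arms passed (edgeR adjusted p from 0.0644 upwards), so the median over the 11 was -0.25. miR-30c-5p had 2123, 2128 and 2505 CPM in Ad-Yap WT, against 4588, 5841 and 4925 CPM in Ad-Yap shRNA, with 1289 to 2383 CPM in Ad-GFP. Ad-Yap shRNA lay above all other libraries, and the other 2 groups overlapped. It had a log2 fold change of -1.18 (SE 0.23, edgeR adjusted p = 0.00675). miR-30e-5p, miR-30d-5p, miR-30a-5p and miR-30b-5p had log2 fold changes of -1.16, -1.11, -1.03 and -0.64. These 5 kept their calls in every refit without 1 library, and on the deposited totals miR-30b-5p turned to 0.26 while the other 4 stayed negative, at -0.28 to -0.16. miR-30a-5p and miR-30e-5p differ by 1 base, so reads could be divided between them.

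miR-384-5p carries the same seed as miR-30, printed above, and moved the other way. It had 155.1, 153 and 207.7 CPM in Ad-Yap WT, against 77.2, 99.03 and 83.5 CPM in Ad-Yap shRNA, with 75.0 to 88.6 CPM in Ad-GFP (log2 fold change 0.99, edgeR adjusted p = 0.00432). Its other arm, miR-384-3p, had a log2 fold change of 1.54 (edgeR adjusted p = 3.44e-04). The second such case was chosen after its values were seen. miR-708-5p had 417, 417 and 523 CPM in Ad-Yap WT, against 875, 834 and 956 CPM in Ad-Yap shRNA (log2 fold change -0.97, edgeR adjusted p = 6.46e-04), and miR-28-5p had a log2 fold change of 0.34 (edgeR adjusted p = 0.0296; above 0.05 in 5 of 9 refits without 1 library, up to 0.115). Of 44 seeds shared by at least 2 tested miRNAs, 12 had at least 2 members past the test, with 5 all higher, 5 all lower and 2 divided.

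The miR-181 family, known from T cells and, for miR-181c, from heart mitochondria, was lower for 4 of 7 tested arms, beside 14.3% of all tested entries, and higher for 0, with a median log2 fold change of -0.59 (0.34 on the deposited totals). miR-181c-5p had 2218, 2349 and 2309 CPM in Ad-Yap WT, against 5812, 5384 and 5350 CPM in Ad-Yap shRNA, with 2829 to 2894 CPM in Ad-GFP. The spread within each group was small, and Ad-GFP lay just above Ad-Yap WT. The log2 fold change was -1.27 (SE 0.068, edgeR adjusted p = 2.64e-05), and -0.39 on the deposited totals. miR-181a-5p, miR-181d-5p and miR-181c-3p had -0.67, -0.59 and -0.76, and turned positive on the deposited totals. miR-181b-5p, with the same seed, had 7173, 7463 and 7668 CPM in Ad-Yap WT, against 6070, 6553 and 7045 CPM in Ad-Yap shRNA, and did not pass (log2 fold change 0.18, edgeR adjusted p = 0.123).

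**Figure D3:**
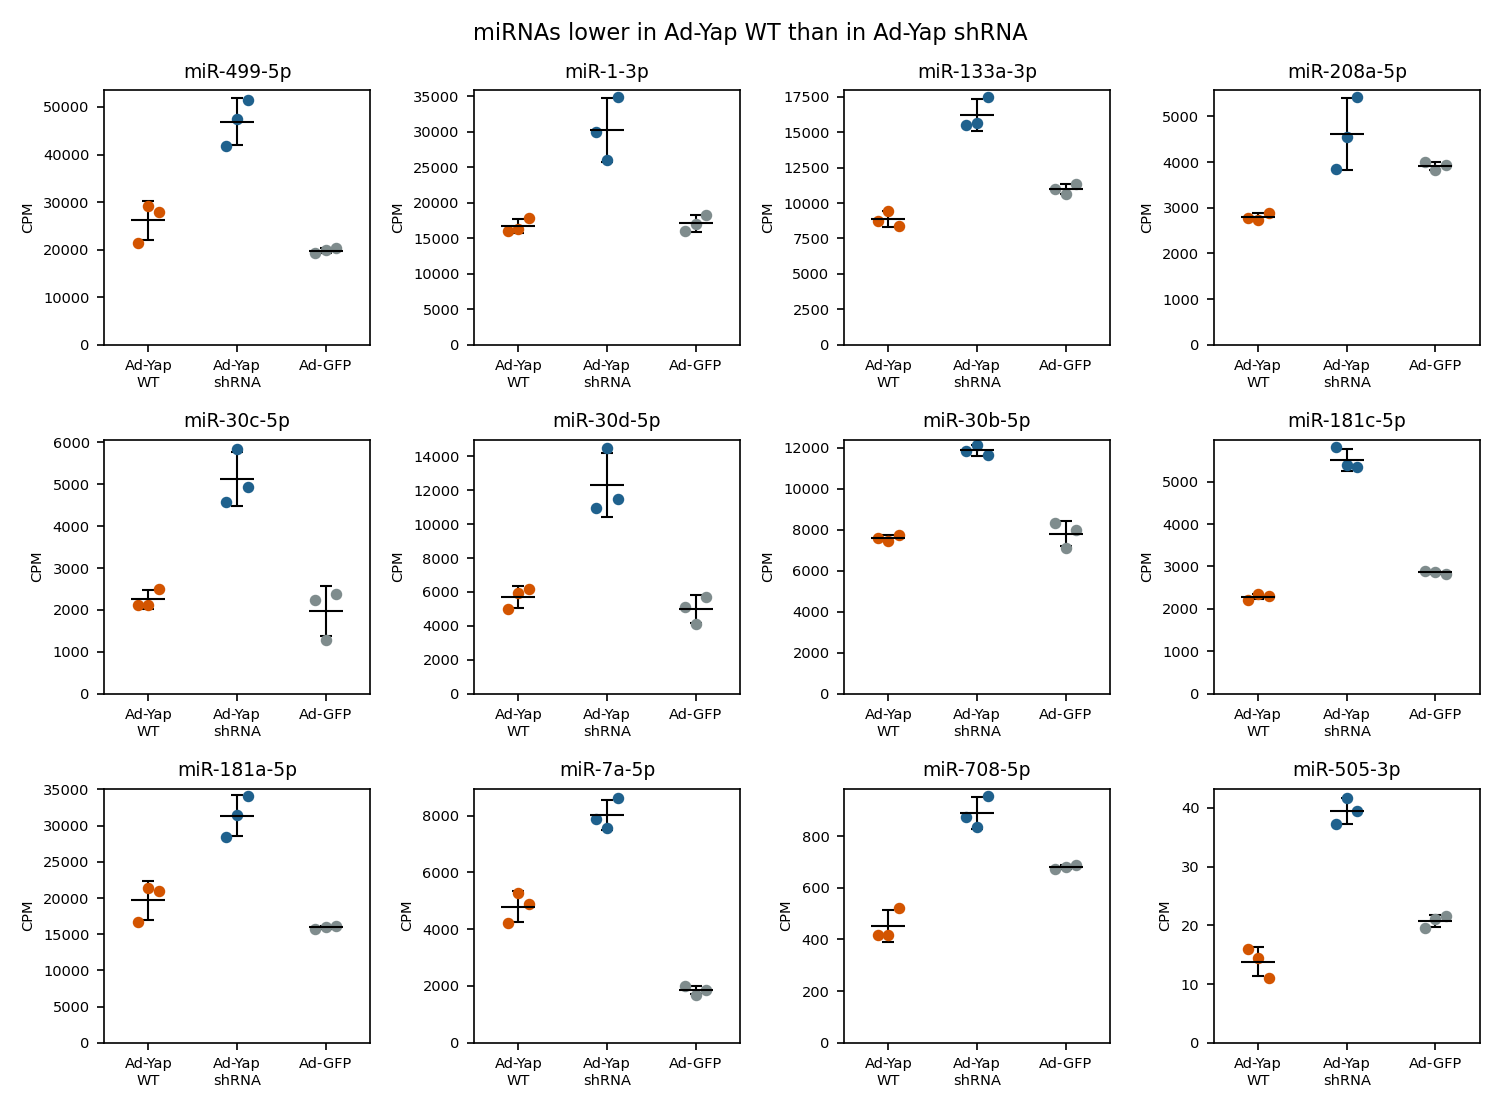
TMM-scaled CPM (vertical, linear from 0) of 12 miRNAs that were lower in Ad-Yap WT, with 1 point per library for Ad-Yap WT, Ad-Yap shRNA and Ad-GFP, and bars for mean ± SD (n = 3). In all panels the Ad-Yap shRNA libraries lie above those of Ad-Yap WT; on the deposited totals the log2 fold changes of miR-499-5p, miR-1-3p, miR-133a-3p, miR-208a-5p, miR-30b-5p, miR-181a-5p and miR-7a-5p turned positive.

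miR-7a-5p had 4201, 5264 and 4902 CPM in Ad-Yap WT, against 7894, 7581 and 8610 CPM in Ad-Yap shRNA, with 1698 to 2009 CPM in Ad-GFP. Both Yap groups lay above Ad-GFP, and Ad-Yap shRNA lay highest (log2 fold change -0.75, SE 0.11, edgeR adjusted p = 0.00254; 0.11 on the deposited totals). miR-505-3p had 15.997, 14.4 and 11.1 CPM in Ad-Yap WT, against 37.3, 41.8 and 39.5 CPM in Ad-Yap shRNA (log2 fold change -1.51, edgeR adjusted p = 5.76e-04). Both arms of miR-483, made from an intron of Igf2, were lower. miR-483-3p had 40.1, 28.8 and 34.3 CPM in Ad-Yap WT, against 101, 63.4 and 81.7 CPM in Ad-Yap shRNA (log2 fold change -1.25, edgeR adjusted p = 0.00531), and miR-483-5p had -1.07 (edgeR adjusted p = 0.00530).

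In the miR-130 and miR-301 family, reported to repress a regulator of Yap in liver, 3 of 7 tested arms were lower, beside 14.3% of all tested entries, and 0 higher, with a median log2 fold change of -0.59 (0.26 on the deposited totals). The lower count was 1 without replicate 2 of Ad-Yap WT, and 2 to 4 without any other library. miR-301b-3p had 67.6, 77.8 and 73.4 CPM in Ad-Yap WT, against 147.9, 127.7 and 114 CPM in Ad-Yap shRNA (log2 fold change -0.83, edgeR adjusted p = 0.0109; 0.0085 on the deposited totals). miR-130b-3p (-1.23) lost its call in 6 of 9 refits without 1 library (edgeR adjusted p up to 0.100), and miR-301a-3p (-0.38) lost it without replicate 2 of Ad-Yap WT (0.0532). In the Dlk1-Dio3 imprinted cluster, a large group of miRNAs made from maternal transcripts, 6 of 54 tested arms were lower and 0 higher. Without 1 library 2 to 5 were lower, with 2 without replicate 3 of Ad-Yap WT and 3 without replicate 1 of Ad-Yap shRNA. The share is below the 14.3% of all tested entries, and 44 of the 54 had a negative log2 fold change, and the median was -0.33 (0.58 on the deposited totals). miR-379-5p had 961, 839 and 950 CPM in Ad-Yap WT, against 1258, 1130 and 1234 CPM in Ad-Yap shRNA (log2 fold change -0.40, edgeR adjusted p = 0.0113).

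The let-7 family, known as brakes on proliferation, had 1 higher and 5 lower of 20 tested arms, with a median log2 fold change of -0.13 (0.73 on the deposited totals), a share of 30% beside 28.5% of all tested entries. Without 1 library 2 to 4 were lower, with 2 without replicate 1 or 3 of Ad-GFP, 4 without its replicate 2 and 3 without any one Yap library. Unstable counts, described below, held for 4 of the 20, and 1 of these is among the 5. let-7g-5p had 18130, 20854 and 21922 CPM in Ad-Yap WT, against 27400, 27068 and 33301 CPM in Ad-Yap shRNA (log2 fold change -0.53, edgeR adjusted p = 0.00973; 0.36 on the deposited totals). let-7f-5p, at -0.47, lost its call without replicate 1 or 3 of Ad-GFP or replicate 2 or 3 of Ad-Yap shRNA (edgeR adjusted p up to 0.0755). let-7 members differ by single bases, so their values are uncertain.

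**Figure D4:**
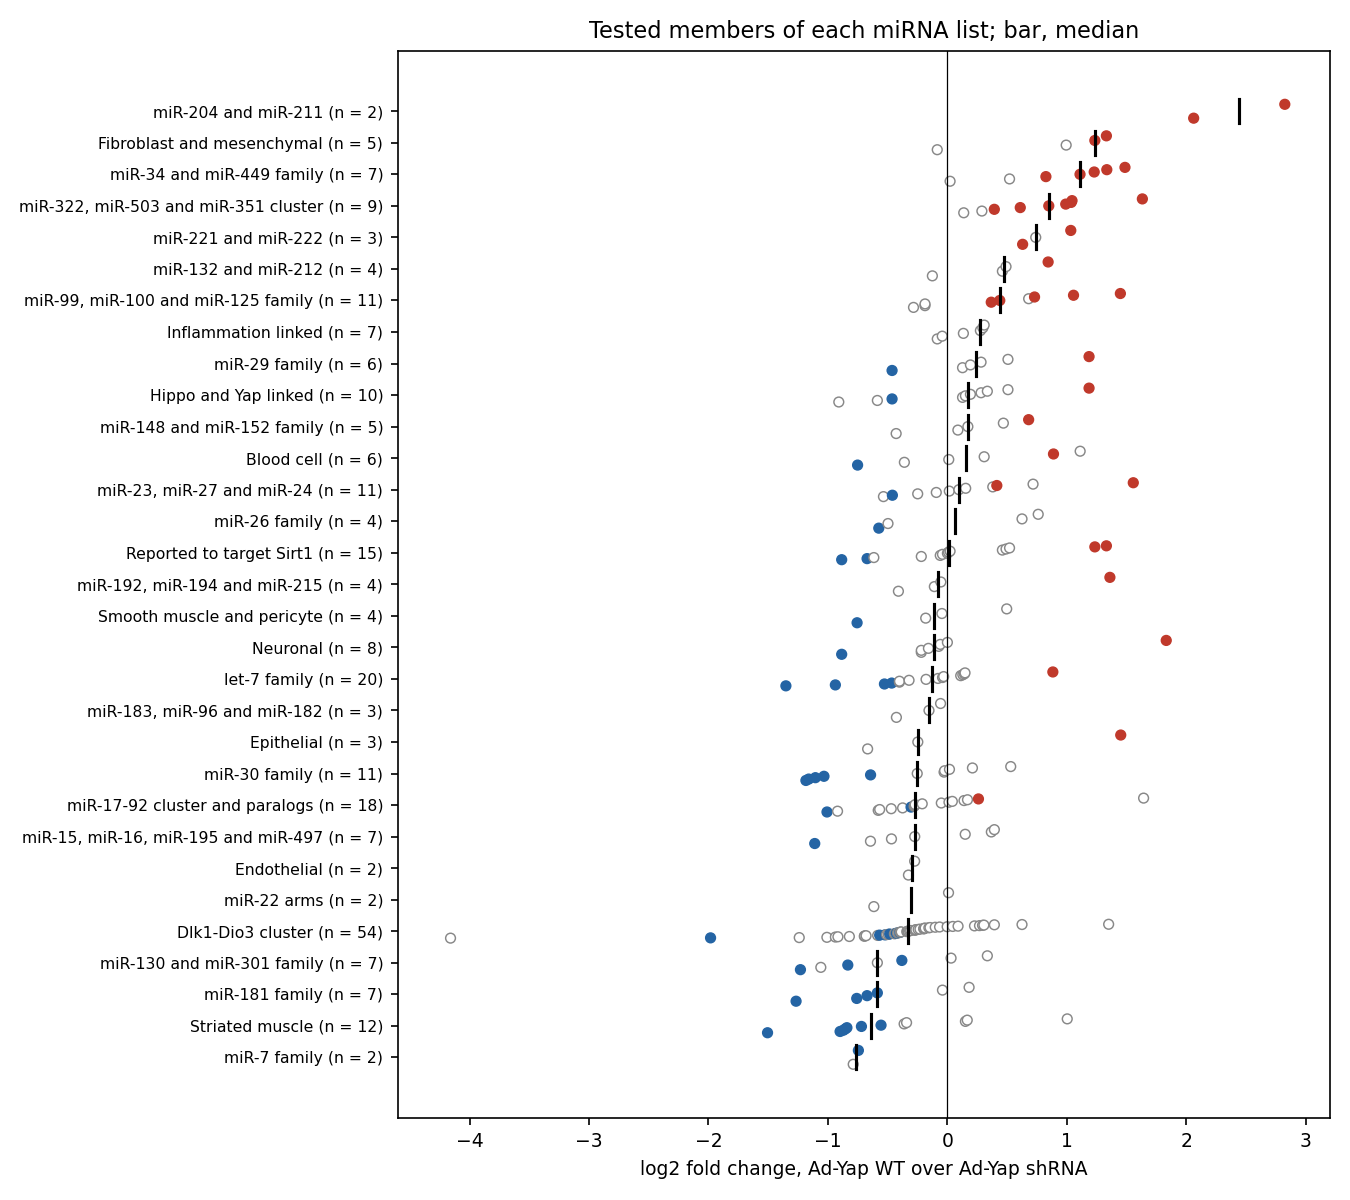
Log2 fold change of Ad-Yap WT over Ad-Yap shRNA (horizontal) for tested members of 31 miRNA lists, ordered by median (black bar). Red marks higher members, blue lower ones, and open points those that did not pass. Medians and n include entries with unstable counts, which are not drawn; the miR-204 and miR-211 list has the highest median (2.44) and the miR-7 list the lowest (-0.77), and on the deposited totals all medians move up, that of striated muscle to 0.29.

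miR-22-3p, which the series title places between Yap and the deacetylase Sirt1, was the most read annotated miRNA over the 6 libraries. It had 32783, 58820 and 50708 CPM in Ad-Yap WT, against 56318, 77174 and 84601 CPM in Ad-Yap shRNA, with 24716 to 26204 CPM in Ad-GFP. Replicate 2 of Ad-Yap WT lay above replicate 1 of Ad-Yap shRNA, so the groups overlapped, and both lay above Ad-GFP. Its log2 fold change was -0.62 (SE 0.23, edgeR adjusted p = 0.079), which missed the threshold. It passed in several other settings, not all of them listed here. Among these were a block for the replicate number (edgeR adjusted p = 0.0432) and DESeq2 (adjusted p = 0.0467). It also passed without replicate 2 of Ad-Yap WT (edgeR adjusted p = 0.0435) and without replicate 1 of Ad-Yap shRNA (edgeR adjusted p = 0.0495). With libraries of matched miRNA depth, described next, the log2 fold change was -0.08, and on the deposited totals 0.20. miR-22-5p had 98.1, 117 and 110 CPM in Ad-Yap WT, against 123.6, 109 and 89.6 CPM in Ad-Yap shRNA (log2 fold change 0.01, edgeR adjusted p = 0.966). Of 15 tested miRNAs reported to target Sirt1, 2 were higher, 2 were lower and the median log2 fold change was 0.01, a share of 26.7% beside 28.5% of all tested entries.

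The level of the most read miRNAs moved with miRNA depth. All of the 10 most read annotated miRNAs had their lowest Ad-Yap WT level in replicate 1, the deepest library of that group, and 9 of the 10 had their lowest Ad-Yap shRNA level in replicate 1 of that group, also its deepest. Their median log2 fold change was -0.44, with 2 lower and 0 higher. The part of depth in these differences was not tested. Replicates 2 and 3 of Ad-Yap WT (1.93 and 2.15 M) have a miRNA depth near that of replicate 1 of Ad-Yap shRNA (2.09 M), and their values are given as a description. Since the 122 miRNAs were called with these libraries among the 6, an equal sign was fixed by the choice and says nothing of depth. Fold changes were, on the log2 scale, within 0.5 of that over all libraries for 118 of the 122. In this fit Ad-Yap shRNA has 1 library, which is assumed to vary like the other groups, and Ad-GFP was kept for the spread. There 20 annotated miRNAs passed, 14 higher and 6 lower.

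At matched depth, miR-204-5p had a log2 fold change of 2.64, miR-181c-5p -1.35 and miR-133a-3p -0.83, against 2.82, -1.27 and -0.87 over all libraries. miR-499-5p had -0.59, against -0.84 over all libraries. miR-211-5p had 1.27, against 2.06 over all libraries, and replicate 1 of Ad-Yap WT, left out here, held its highest value.

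**Figure D5:**
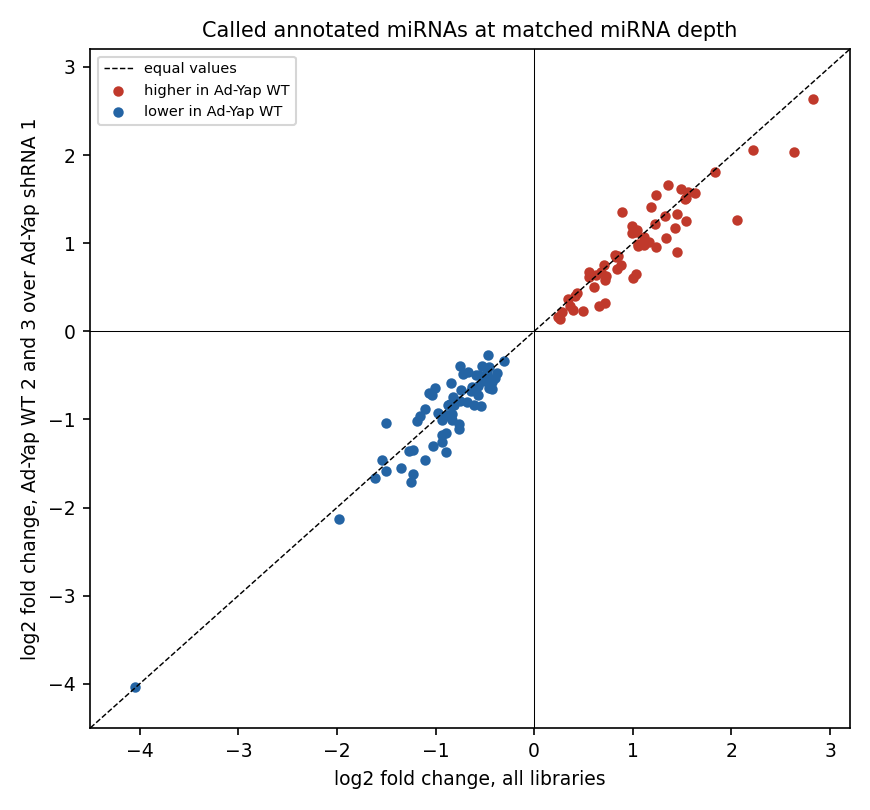
Log2 fold change from replicates 2 and 3 of Ad-Yap WT over replicate 1 of Ad-Yap shRNA, which have similar miRNA depth (vertical), against that over all libraries (horizontal), for annotated miRNAs that passed; the dashed line marks equal values. The libraries plotted vertically are part of those plotted horizontally, so equal signs were fixed by the choice of points; 118 of the 122 miRNAs lie within 0.5 of the line, and let-7a-5p and miR-378a-3p, whose counts jump within groups, are not drawn.

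Some entries had counts that jumped between libraries of 1 group, by more than 8-fold with a count over 300. This held for 22 of the 428 tested annotated miRNAs, and 2 of the 22 passed the test. let-7a-5p had 1971, 936 and 439 reads in Ad-Yap WT, against 77316, 61093 and 436 reads in Ad-Yap shRNA, and miR-3596a had 91128, 65499 and 76256 reads in Ad-Yap WT, against 1099, 276 and 53478 reads in Ad-Yap shRNA. Where one was high, the other was low. Their RefSeq sequences, printed here without marking, are reverse complements that lie on opposite strands of the same bases.
let-7a-5p: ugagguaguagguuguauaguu
miR-3596a: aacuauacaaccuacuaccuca

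Added together, the 2 entries had 28101, 38264 and 37046 CPM in Ad-Yap WT, against 42335, 47480 and 47369 CPM in Ad-Yap shRNA, with a log2 fold change of -0.41 (edgeR adjusted p = 0.0400) in place of -6.05 for let-7a-5p alone. Judged by counts alone, and with no test of read sharing, miR-378a-3p behaved in a similar way with 2 predicted entries. Alone it had 58911, 47348 and 42820 reads in Ad-Yap WT, against 333, 113 and 114 reads in Ad-Yap shRNA, and 33 to 76289 reads in Ad-GFP, for a log2 fold change of 7.48 (edgeR adjusted p = 0.0317). Added to the 2 predicted entries, it had 18990, 31733 and 20829 CPM in Ad-Yap WT, against 36481, 41385 and 33961 CPM in Ad-Yap shRNA, and the log2 fold change was -0.64 (edgeR adjusted p = 0.0340). The single values of let-7a-5p and miR-378a-3p are therefore uncertain. The sum for miR-378a-3p leaves out miR-3557-5p, which lies opposite it on the other strand over 21 bases. miR-3557-5p averaged 39353 CPM over the 6 libraries, beside 11017 CPM for miR-378a-3p (log2 fold change -0.42, edgeR adjusted p = 0.0872). Whether these 2 entries shared reads was not tested, so the summed value is uncertain too. The sources used here do not say whether strand entered the counting.

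Markers of other cell types that the cultures could hold were also read. The endothelial list, with both arms of miR-126a tested, summed to 5002 to 5852 CPM in Ad-Yap WT, 6172 to 7429 CPM in Ad-Yap shRNA and 3581 to 4480 CPM in Ad-GFP, and 0 of 2 passed (edgeR adjusted p = 0.0868 for miR-126a-3p). The smooth muscle and pericyte list summed to 13098 to 14841 CPM in Ad-Yap WT and 16478 to 21881 CPM in Ad-Yap shRNA. Its 1 lower member of 4 was miR-145-5p (-0.76), whose call was lost in 6 of 9 refits without 1 library (edgeR adjusted p up to 0.115). The blood cell list summed to 482 to 842 CPM in Ad-Yap WT and 840 to 856 CPM in Ad-Yap shRNA, with 1 of 6 higher and 1 lower. The epithelial list stayed at 29.4 to 35.7 CPM in Ad-Yap WT and 29.4 to 34.3 CPM in Ad-Yap shRNA, with 1 of 3 higher. The neuronal list summed to 1715 to 2098 CPM in Ad-Yap WT and 1803 to 2223 CPM in Ad-Yap shRNA, with 1 of 8 higher and 1 lower. Of 7 inflammation linked miRNAs, 0 passed, and the median log2 fold change was 0.28. The share that passed was 25% for the smooth muscle and pericyte list and for the neuronal list. It was 33.3% for the blood cell list and for the epithelial list. Among all tested entries 28.5% passed, with 14.2% higher and 14.3% lower. The part of these cell types in the results was not tested.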

How the data were processed

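Small RNA of neonatal rat cardiomyocytes was read in 9 libraries, 3 per virus. Library preparation used a small RNA kit from BGI with PCR amplification, per the labels' protocols; molecular identifiers and the assignment of reads that match several miRNAs are not given in the sources used here. Bowtie2, DESeq2 and build rn6 are named in the submitters' processing notes, with no versions. The table holds raw read counts per miRNA as deposited, and RPM values in which the authors divided those counts by a library total; 6 columns of group means (the authors' average signal and RPM) were not used. RPM served only to recover library totals, and what those totals count is not stated.

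Tests used edgeR 4.0.16 (R 4.3.3) on the deposited counts: filterByExpr, TMM factors among miRNAs, and glmQLFit with 1 mean per group over all 9 libraries, so that Ad-GFP adds to the estimate of spread (common biological CV 45.1%). The contrast was Ad-Yap WT minus Ad-Yap shRNA. Two-sided p-values were adjusted over 579 entries (Benjamini-Hochberg), and SE was taken as the absolute log2 fold change over the root of F. At p under 0.05 without adjustment, 239 entries passed. Because PCR copies molecules, counting error understates the error of low counts.

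Members, 31 lists and tests were chosen with earlier results of these data known. Lists overlap, and cardiomyocytes express members of several lists of other cell types. Named miRNAs are annotated ones that passed without overlap of libraries (among those averaging 10 CPM or more, the 12 that rose most and the 12 that fell most; also the 10 most read), in each list at most 3 members with the smallest p, other members given as part of a list or seed group, both arms of miR-22, other arms of named miRNAs, and the 10 most read whatever their p. Alternatives were other scalings, filters and tools (DESeq2 1.42.0, limma 3.58.1), fits without 1 library, and a block for the replicate number. Added after the data were seen were matched depth, unstable entries left out, entries with exchanging counts summed, and the block on 6 libraries.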

Additional observations from a re-analysis of the deposited data

How the results depend on the processing

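The count of annotated miRNAs past the test was 122 and ranged from 92 to 119 when each library was left out in turn (165 over all tested entries, 125 to 164); 41 to 58 were higher and 51 to 61 lower. It was lowest without replicate 1 of Ad-Yap shRNA (92) and without replicate 1 of Ad-Yap WT (94), and 75 of the 122 passed in all 9 refits. Under RLE, upper quartile, limma-voom, a stricter filter, a 1.2-fold null or 6 libraries, it lay between 90 and 122; cyclic loess gave 67 higher and 71 lower, DESeq2 69 higher and 63 lower, and the fit without predicted entries 61 higher and 64 lower. Without scaling factors 26 were lower and 85 higher, the median over all entries shifting by 0.28. On the deposited totals 80 passed and 2 were lower, with a shift of 0.89; 38 of the 122 changed sign, as a common shift makes them do. With no filter, which raised the entries tested to 1422, 81 passed and 42 were lower. At matched miRNA depth, with 3 libraries of the Yap groups, 1 of them from Ad-Yap shRNA, 23 entries passed, 20 of them annotated, 14 higher and 6 lower. The share of miRNA reads differed by 4.19 percentage points, and by 1.60 to 6.04 without 1 library. Not all of the 38 that changed sign are listed here, and miR-208a-5p is given above. These are among the log2 fold changes that turned positive on the deposited totals: let-7f-5p 0.38, let-7g-5p 0.36, miR-1-3p 0.046, miR-133a-3p 0.032, miR-145-5p 0.17, miR-150-5p 0.19, miR-181a-5p 0.19, miR-181c-3p 0.19, miR-181d-5p 0.34, miR-19b-3p 0.56, miR-24-1-5p 0.47, miR-26b-5p 0.34, miR-29c-5p 0.44, miR-301a-3p 0.53, miR-301b-3p 0.0085, miR-30b-5p 0.26, miR-379-5p 0.53, miR-411-5p 0.48, miR-485-5p 0.41, miR-499-5p 0.013, miR-674-3p 0.17, miR-7a-5p 0.11 and miR-9a-3p 0.018. miR-378a-3p turned to -0.64 when summed with the 2 predicted entries described above. Deviations of same-numbered libraries of the Yap groups had r = 0.34 for replicate 1, the largest of all pairings. They had r = -0.21 and -0.02 for replicates 2 and 3, and the numbers were not treated as pairs. With a replicate block 119 annotated miRNAs passed, 108 of them shared with the fit without it, and miR-22-3p passed (edgeR adjusted p = 0.0432). On 6 libraries the block gave 88, 81 of them shared, and 41 of the 122 were lost. Over all settings the adjusted p of miR-22-3p was 0.0429 to 0.712. Depth limits low entries most, since 225 annotated entries had too few reads to be tested.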

Other observations

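Predicted entries, which carry no annotated name, were tested in the same fit. Of 151 tested, 43 passed (edgeR adjusted p under 0.05), 24 higher and 19 lower in Ad-Yap WT, which is the same 28.5% as among all entries. Among the lower ones, 1 predicted entry had 157, 688 and 385 CPM in Ad-Yap WT, against 3178, 3490 and 3485 CPM in Ad-Yap shRNA, with 63.0 to 77.7 CPM in Ad-GFP. The Ad-Yap shRNA libraries lay close together and far above all others (log2 fold change -3.05, edgeR adjusted p = 0.00281). A second predicted entry had 514, 745 and 616 CPM in Ad-Yap WT, against 1249, 3687 and 3888 CPM in Ad-Yap shRNA, with 22.3 to 29.2 CPM in Ad-GFP (log2 fold change -2.23, edgeR adjusted p = 0.00507). Both were chosen after their values were seen, and in both the Yap viruses lay above Ad-GFP in every library.

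miR-125b-5p and miR-3588 formed a second pair of reverse complements whose counts exchanged between libraries. miR-125b-5p had 36602, 188 and 30199 reads in Ad-Yap WT, against 18802, 36541 and 104 reads in Ad-Yap shRNA, and miR-3588 had 340, 25100 and 241 reads in Ad-Yap WT, against fewer reads than in any Ad-Yap WT library in replicates 1 and 2 of Ad-Yap shRNA and 18135 reads in replicate 3. Of 63 tested entries that lie opposite another entry by at least 15 bases, 15 had unstable counts, beside 5.18% of all tested entries, and 18 passed the test, a share near the 28.5% of all tested entries. For miR-31a-5p, which has such a partner in miR-31b, the partner averaged 7.14 CPM beside 12488 CPM over the 6 libraries. Partners of other named miRNAs were read more. miR-133c, opposite miR-133a-3p, averaged 5093 CPM beside 12535 CPM, and was lower too (log2 fold change -0.63, edgeR adjusted p = 0.00970). miR-3589, opposite miR-505-3p, averaged 75.9 CPM beside 26.7 CPM, and was lower too (log2 fold change -0.82, edgeR adjusted p = 0.0171). Whether such pairs shared reads was not tested.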
